A study of Rattus norvegicus with 10 samples.

Results

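Renal gluconeogenesis and ammoniagenesis were described through 7 genes: *Pck1*, *Pck2*, *G6pc*, *Fbp1*, *Khk*, *Glud1* and *Glul*. They were taken by gene symbol from a table of 32545 genes, which held 8 rows for them because the symbol *G6pc* stood on 2 rows. The table covered bulk RNA of the kidney from 5 male and 5 female PCK rats (PCK/CrljCrl-Pkhd1pck/Crl) aged 12 to 14 weeks in the labels, and the methods of the study give a somewhat younger range and name the renal cortex as the tissue. Every rat carried the *Pkhd1* mutation, which is the model's cause of autosomal recessive polycystic kidney disease, and the libraries held no wild-type group, so that sex was the one contrast available and no value below is a difference from a healthy kidney. No treatment was labelled. The rats were littermates from 2 litters with different parents, and the litter of each rat was not used here.

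The kidney makes new glucose in the proximal tubule, from lactate, glutamine and glycerol. The same cells take the nitrogen off glutamine to make ammonium, and the carbon skeleton left behind can be carried through phosphoenolpyruvate into glucose, which is why acidosis is known to drive both processes together. Phosphoenolpyruvate carboxykinase exists as a cytosolic enzyme (*Pck1*) and a mitochondrial one (*Pck2*), *Fbp1* encodes fructose bisphosphatase, *G6pc* the catalytic subunit of the phosphatase that releases free glucose, *Khk* the ketohexokinase that admits fructose, *Glud1* the mitochondrial glutamate dehydrogenase that frees ammonium from glutamate, and *Glul* the glutamine synthetase that binds ammonium again.

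The sequences before the start sites are shown because the cytosolic and mitochondrial carboxykinases, and the *G6pc* gene at the other end of the pathway, stood far apart in level and in how much they varied between rats. All 7 genes matched the RefSeq promoter table (rat GRCr8, 250 bases before to 50 after the start), *G6pc* through its newer symbol *G6pc1*. The *Pck1* window lay at chr3:182348322-182348621 on the plus strand, the *Pck2* window at chr15:32997603-32997902 on the plus strand and the *G6pc1* window at chr10:86807409-86807708 on the plus strand. Capitals mark letters found in a search of both strands for the cAMP response element (CRE) TGACGTCA, its shortened form TGACG, its variant TTACGTCA, the C/EBP letters TTGCGCAA, the HNF4 letters CAAAGTCCA, the HNF1 letters GTTAAT, the FOXO letters GTAAACA, the glucocorticoid receptor letters AGAACA and the TATA box TATAAA.
Pck1: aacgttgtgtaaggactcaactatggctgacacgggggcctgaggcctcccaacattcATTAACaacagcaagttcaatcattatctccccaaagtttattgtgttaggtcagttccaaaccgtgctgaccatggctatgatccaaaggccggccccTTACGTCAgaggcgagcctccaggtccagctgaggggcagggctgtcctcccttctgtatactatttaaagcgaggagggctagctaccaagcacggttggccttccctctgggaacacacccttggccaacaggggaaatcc
Pck2: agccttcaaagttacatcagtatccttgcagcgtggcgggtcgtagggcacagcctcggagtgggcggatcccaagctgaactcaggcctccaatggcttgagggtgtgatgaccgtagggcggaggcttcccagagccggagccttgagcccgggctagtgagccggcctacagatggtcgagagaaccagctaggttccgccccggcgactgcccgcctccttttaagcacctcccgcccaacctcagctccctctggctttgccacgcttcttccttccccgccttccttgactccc
G6pc1: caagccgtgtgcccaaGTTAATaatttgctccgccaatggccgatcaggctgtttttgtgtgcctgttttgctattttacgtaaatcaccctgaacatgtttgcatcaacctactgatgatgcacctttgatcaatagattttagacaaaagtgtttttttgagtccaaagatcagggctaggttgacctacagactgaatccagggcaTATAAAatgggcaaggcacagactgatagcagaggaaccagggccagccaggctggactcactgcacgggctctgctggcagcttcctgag

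The *Pck1* window held TTACGTCA with its first base 93 bases before the start, letters found in 0.807% of the 33469 promoters in the table. The complement of the same stretch holds the shortened form TGACG, at 90 bases before the start, so both matches are 1 stretch, and 21.2% of promoters hold that form. *Pck1* also held the HNF1 letters, on the minus strand at 192 bases before the start, and *G6pc1* held them on the plus strand at 234 bases before, against 7.45% of promoters. *G6pc1* alone of the 7 genes held TATAAA, 41 bases before the start, against 14.2% of promoters. One of the 2 start sites of *Glul* held TGACG 24 bases after the start. None of the letters occurred in the windows of *Pck2*, *Fbp1*, *Khk*, *Glud1* or the other *Glul* start site. The CRE itself (1.83% of promoters), the C/EBP letters (0.170%), the HNF4 letters (0.391%), the FOXO letters (3.78%) and the glucocorticoid receptor letters (20.7%) occurred in no window of the 7 genes. The *Pck2* window was richer in G and C (62.7%) than those of *Pck1* (53.3%) and *G6pc1* (47.3%).

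The deposited values were FPKM, reads scaled to gene length and library size, a scale divided by length on which the levels of different genes can be compared. Reads on genes ranged from 13912569 to 20285911 per library. Female 2 had the highest mitochondrial share of reads, 26.8%, against 14.3% to 19.1% in the other 9 libraries. The labelled tissue carried its defining genes: the summed FPKM of 10 proximal tubule markers ran from 2415 to 3955 in males and from 2181 to 4116 in females. The lowest sums were those of female 2 and male 5. On the Rnor_6.0 build of the table the members lie on separate chromosomes, *Pck1* at chr3:171213936-171219871, *Glul* at chr13:71331052-71340229, *Pck2* at chr15:34216833-34224193 and *Glud1* at chr16:10662021-10695557 on the plus strand, and *Khk* at chr6:26810579-26820959 and *Fbp1* at chr17:396180-417480 on the minus strand. The values are 1 per gene, not per exon.

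The sexes were compared by limma, fitted to log2(FPKM + 0.1) of 17631 genes whose mean reached 0.1 FPKM and adjusted over all of them by Benjamini-Hochberg. A gene was called at an adjusted p of 0.05 or less. Over all genes tested, 1.26% were called higher in females and 1.14% lower, and the FPKM ranges of the sexes did not overlap for 5.10%. None of the 8 member rows was called in either direction, 1 row (*Pck2*) had ranges that did not overlap, and 2 rows (*Pck2* and *Glul*) had an unadjusted limma p under 0.05, as had 2775 of all genes tested. The median log2 fold change of the 8 rows, females over males, was 0.09, against -0.01 over all genes tested. Each row was also compared by an exact two-sided permutation test of mean FPKM, not adjusted, whose smallest possible p with 5 against 5 rats is 0.00794.

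**Figure D1:**
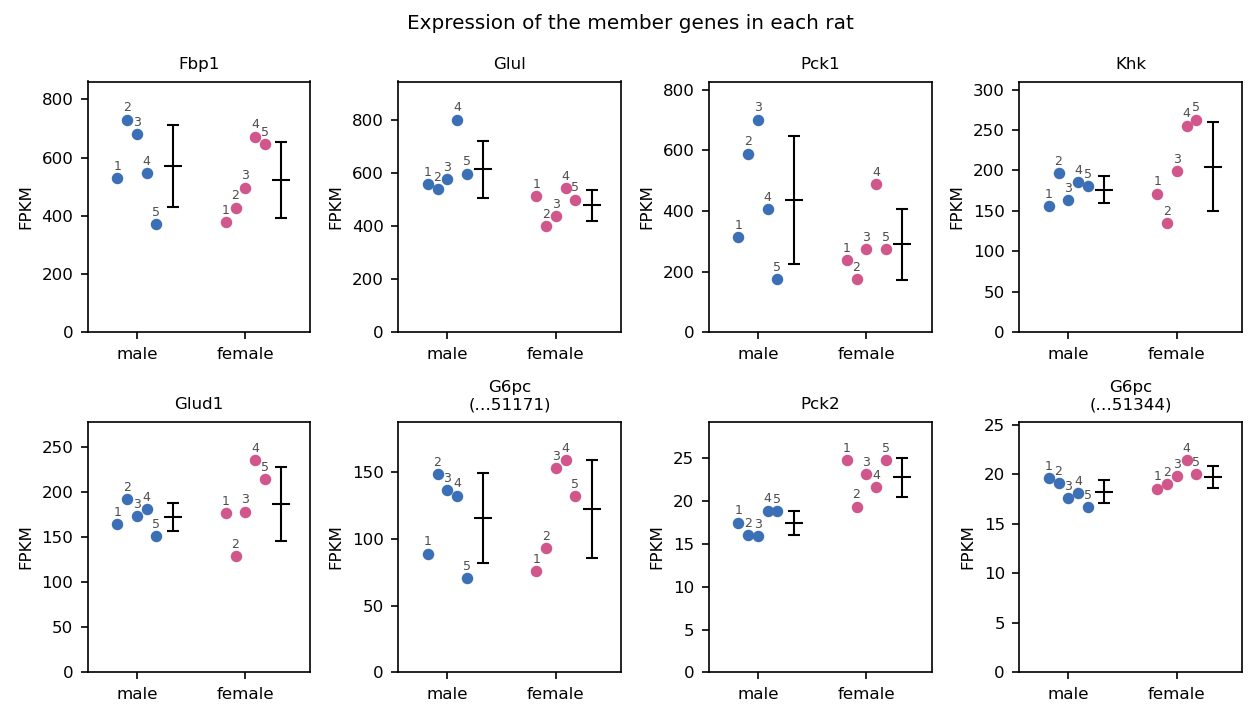
FPKM of each member row in each rat (points, numbered by replicate, males in blue and females in pink), with the mean and SD of each sex (black bar, n = 5) and each vertical axis starting at 0. The sexes were separate for *Pck2*, where the highest male stood at 18.9 FPKM and the lowest female at 19.4 FPKM, while the *Pck1* values of both sexes reached down to 175 FPKM.

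Of the members, *Pck1* differed most from rat to rat. Males 1 to 5 stood at 313, 589, 701, 406 and 175 FPKM, and females 1 to 5 at 237, 175, 273, 489 and 274 FPKM. Male 3 had 4.0 times the level of male 5, and 2 males exceeded every female, but the ranges overlapped from 175 FPKM upward because male 5 and female 2 were equally low. The means were 437 ± 211 FPKM in males and 290 ± 118 FPKM in females (SD, n = 5 each), with log2 fold change -0.52 (SE 0.37) that did not pass the test (limma adjusted p = 0.550, exact permutation p = 0.222). The 95% interval of the log2 fold change ran from -1.34 to 0.30, so a lower level in females by more than the study's own fold threshold (log2 of 1) lay within it. *Pck1* had 6471 to 28688 reads per library, so counting error was small beside the spread between rats.

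*Pck2*, the mitochondrial isozyme, was low and steady. Males stood at 17.5, 16.0, 15.9, 18.9 and 18.9 FPKM, and females at 24.8, 19.4, 23.2, 21.6 and 24.8 FPKM. All 5 females lay above all 5 males, with female 2 closest to the males. The means were 17.4 ± 1.45 FPKM in males and 22.7 ± 2.31 FPKM in females (SD, n = 5 each), 1.3 times as high in females, with a log2 fold change of 0.38 (SE 0.09, 95% interval 0.18 to 0.58). The exact permutation p was 0.00794, the smallest this design allows, whereas the adjusted p over all genes was 0.0614 (limma). Without female 2, the rat with the high mitochondrial share, the log2 fold change was 0.44 and the adjusted p 0.0207, the one setting that called a member, and over leaving out each rat in turn the adjusted p ran from 0.0207 to 0.150. With FPKM rescaled to total reads on genes, under which the median of all genes shifted to -0.08, the *Pck2* difference was 4.39 FPKM (exact permutation p = 0.0635).

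The cytosolic form exceeded the mitochondrial form in every rat. The ratio of *Pck1* to *Pck2* was 17.9, 36.7, 44.1, 21.5 and 9.30 in males 1 to 5, and 9.56, 9.06, 11.8, 22.6 and 11.1 in females 1 to 5. Males 2 and 3 lay above every female, and males 1, 4 and 5 lay within the female range. Its mean log2 was 0.90 lower in females (exact permutation p = 0.119, 0.179 after Benjamini-Hochberg adjustment over 6 ratios).

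*Fbp1*, further along the pathway, had the highest mean of the members over all 10 rats, close to that of *Glul*, although *Glul* had the higher mean in males. *Fbp1* levels were 531, 730, 680, 547 and 371 FPKM in males and 377, 429, 497, 672 and 646 FPKM in females. Males 2 and 3 were highest and male 5 lowest, as for *Pck1*, and the ranges overlapped. Means of 572 ± 141 FPKM in males and 524 ± 131 FPKM in females (SD, n = 5 each) gave a log2 fold change of -0.12 (SE 0.22, 95% interval -0.60 to 0.35), which did not pass the test (limma adjusted p = 0.842, exact permutation p = 0.563).

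The 2 rows named *G6pc* did not behave as 1 gene. ENSRNOG00000051171 (chr10:89285855-89296213, plus strand, Rnor_6.0) stood at 88.8, 148, 136, 132 and 70.3 FPKM in males and 75.5, 93.1, 152, 159 and 132 FPKM in females. Male 5 and female 1 were lowest, and the ranges overlapped almost fully. ENSRNOG00000051344 (chr10:89236256-89244041, plus strand, Rnor_6.0) stood at 19.6, 19.1, 17.6, 18.1 and 16.7 FPKM in males and 18.5, 19.0, 19.8, 21.4 and 20.02 FPKM in females, a span of 1.28-fold over all rats against 2.26-fold for the first row. In the table the first row lies between *Aoc3* and *Aarsd1*, the place of *G6pc1* in RefSeq, and the second lies between *Becn1* and *Aoc3*, where RefSeq has *Psme3*, a gene that no row of the table names. The symbol of the second row is therefore uncertain, and *G6pc* below means the first row. Both rows overlap a longer model on the same strand (Rn60_10_0892.1, mean 0.901 FPKM), with which reads could have been shared.

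Neither *G6pc* row passed the test. The first averaged 115 ± 33.6 in males and 122 ± 36.7 FPKM in females (SD, n = 5 each), with log2 fold change 0.09 (SE 0.26, 95% interval -0.48 to 0.65, limma adjusted p = 0.913, exact permutation p = 0.659). Its difference in mean FPKM changed sign when male 5, female 3 or female 4 was left out (range -3.92 to 19.0 FPKM over leaving out each rat). The second averaged 18.2 ± 1.17 and 19.7 ± 1.11 FPKM, with log2 fold change 0.12 (SE 0.07, limma adjusted p = 0.483, exact permutation p = 0.0714).

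*Khk*, by which fructose enters metabolism, was more variable in females than in males. Males stood at 156, 197, 163, 185 and 181 FPKM, and females at 171, 135, 199, 255 and 263 FPKM. Females 3, 4 and 5 lay above every male and female 2 below every male, so that the female range enclosed the male one. The log2 fold change was 0.18 (SE 0.17, 95% interval -0.21 to 0.56), on means of 176 ± 16.8 FPKM in males and 205 ± 54.7 FPKM in females (SD, n = 5 each), and did not pass the test (limma adjusted p = 0.689, exact permutation p = 0.310). The coefficient of variation was 9.50% in males and 26.7% in females, a difference in spread that was not tested.

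*Glud1* had the same pattern of spread. Its levels were 165, 192, 173, 181 and 151 FPKM in males and 177, 129, 178, 236 and 215 FPKM in females. Females 4 and 5 exceeded every male, and female 2 was again the lowest rat. The means, 173 ± 15.8 FPKM in males and 187 ± 40.9 FPKM in females (SD, n = 5 each), differed by a log2 fold change of 0.09 (SE 0.15, 95% interval -0.24 to 0.42, limma adjusted p = 0.830, exact permutation p = 0.484). Female 2 was also the rat with the high mitochondrial share. Without it, the log2 fold change was 0.22 for *Glud1* and 0.32 for *Khk* (limma adjusted p = 0.313 and 0.239).

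*Glul*, which runs against ammonium release, stood higher in males by the exact test and not by the test over all genes. Males stood at 556, 539, 575, 799 and 596 FPKM, and females at 512, 399, 436, 541 and 498 FPKM. Of the males, 4 exceeded every female, male 2 fell just below female 4, and male 4 stood far above the rest. The means were 613 ± 106 FPKM in males and 477 ± 58.1 FPKM in females (SD, n = 5 each), with log2 fold change -0.35 (SE 0.14, 95% interval -0.66 to -0.05). The exact permutation p was 0.0159, and 0.00794 to 0.0397 over leaving out each rat in turn, but the adjusted p over all genes was 0.235 (limma, unadjusted p = 0.0258), and 0.248 to 0.360 over leaving out each rat.

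**Figure D2:**
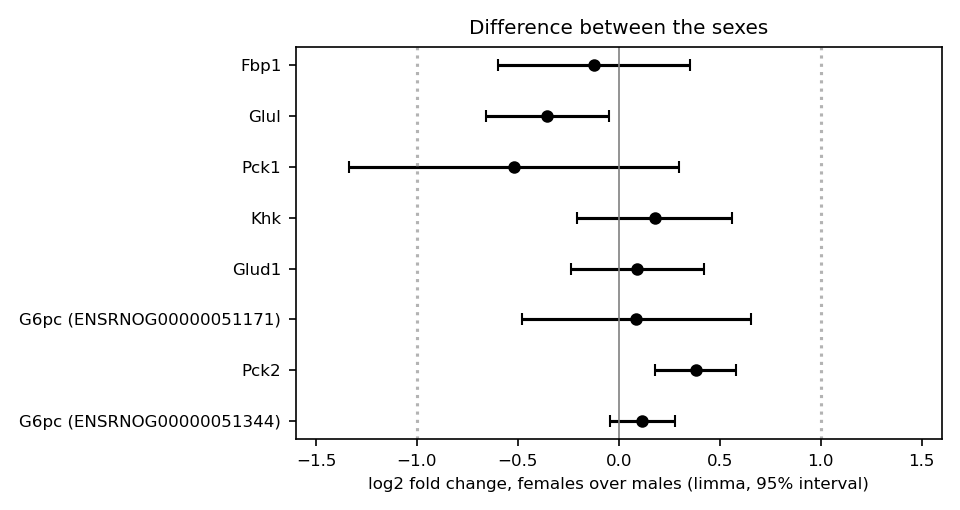
Log2 fold change of each member row, females over males, from the limma fit over all genes (points), with its 95% interval not corrected for the number of genes (bars, n = 5 each) and dotted lines at -1 and 1. The interval of *Pck2* lay above 0 and that of *Glul* below 0, and *Pck1* had the widest, from -1.34 to 0.30.

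Within each rat, the release of ammonium from glutamate could be set against its capture. The ratio of *Glud1* to *Glul* was 0.296, 0.357, 0.302, 0.227 and 0.253 in males 1 to 5 and 0.345, 0.323, 0.410, 0.436 and 0.431 in females 1 to 5. Females 3, 4 and 5 lay above every male, and male 2 reached into the female range. The mean log2 ratio was 0.45 higher in females (exact permutation p = 0.0238), which did not pass after adjustment over the 6 ratios (adjusted p = 0.143). The log2 ratio of *Pck1* to *G6pc* was 0.61 lower in females (exact permutation p = 0.0556), with ratios of 2.49 to 5.15 in males and 1.79 to 3.14 in females. None of the 6 ratios passed after adjustment, and those of *G6pc* to *Fbp1* and *Khk* to *Fbp1* had exact permutation p of 0.183 and 0.175.

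By mean level over the 10 rats the order was *Fbp1* (548 FPKM), *Glul* (545 FPKM), *Pck1* (363 FPKM), *Khk* (191 FPKM), *Glud1* (180 FPKM), *G6pc* (119 FPKM), *Pck2* (20.1 FPKM) and the second *G6pc* row (19.0 FPKM). Only between *G6pc* and *Pck2*, 5.91-fold apart, did the ranges of neighbours not overlap. *Glud1* nevertheless exceeded *G6pc* within each of the 10 rats, and *Pck1* exceeded *Khk* in 9 of 10. *Fbp1* exceeded *Glul* in 6 of 10 rats, 2 males and 4 females. *Fbp1* and *Glul* ranked 109 and 111 by mean level among all genes of the table, and *Pck2* ranked 3959.

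Several members were high or low in the same animals. After subtracting the mean of each sex from log2(FPKM + 0.1), Pearson and Spearman correlations were computed over the 10 libraries for the 28 pairs of member rows, with exact two-sided permutation within each sex. Adjusted over the 28 pairs, 5 had a p of 0.05 or less for Pearson's r, all of them positive. These values share the library, its scaling and its mix of cells, and genes are not independent of each other.

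*Pck1* and *Fbp1* deviated together, with r = 0.87 and rho = 0.90 (n = 10, adjusted permutation p = 0.0365 and 0.0123). Their r was 0.85 without female 1 and male 5, the 2 rats farthest from the mean of their sex in *Fbp1*. In each member pair below, the 2 rats left out were likewise chosen by 1 gene of the pair. For *Fbp1* and *G6pc* r was 0.88 and rho 0.89 (adjusted permutation p = 0.0365 and 0.0226), and r = 0.72 without 2 rats. For *Pck1* and *G6pc* r was 0.83 and rho 0.87 (adjusted permutation p = 0.0365 and 0.0165), and r = 0.71 without 2 rats. These 3 genes of the path to glucose were all lowest among males in male 5, where they lay 1.16, 0.59 and 0.65 below the male mean on the log2 scale, and all high in female 4, at 0.84, 0.39 and 0.43 above the female mean. As background, the 95th percentile of r between *Pck1* and the 11914 genes whose mean reached 1 FPKM was 0.79, and the median 0.01.

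*Khk* and *Glud1* had r = 0.90 and rho = 0.84 (adjusted permutation p = 0.0381 and 0.0651), and r = 0.77 without 2 rats. The r over all 10 rats lay above the 95th percentiles of background r for *Khk* (0.82) and *Glud1* (0.85). The spread was mostly in females, where *Khk* deviated by -0.56 to 0.40, against -0.18 to 0.16 in males. *Fbp1* and *Glud1* passed by rank alone, with r = 0.73 and rho = 0.92 (adjusted permutation p = 0.0606 and 0.0123), and r = 0.85 without 2 rats, and the 0.73 lay below the 95th percentiles of background r for *Fbp1* (0.79) and *Glud1*. *Pck1* and *Glud1* had r = 0.72 and rho = 0.88 (adjusted permutation p = 0.0365 and 0.0123), and r = 0.64 without 2 rats, and the 0.72 lay below the 95th percentile given above for *Pck1*.

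No common pattern of *Pck2* and *Pck1* passed the test. Their r was -0.33 and rho -0.18 (n = 10, adjusted permutation p = 0.481 and 0.754). The pooled value hides the sexes, since males 2 and 3, highest in *Pck1*, were the lowest males in *Pck2*, whereas female 2 was the lowest female in both. *Pck2* was closer to *Glul*, with r = 0.61 and rho = 0.65 (adjusted permutation p = 0.198 and 0.152), and r = 0.36 without 2 rats, which did not pass. *Glul* and *Fbp1*, near equal in mean level, had r = 0.07.

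**Figure D3:**
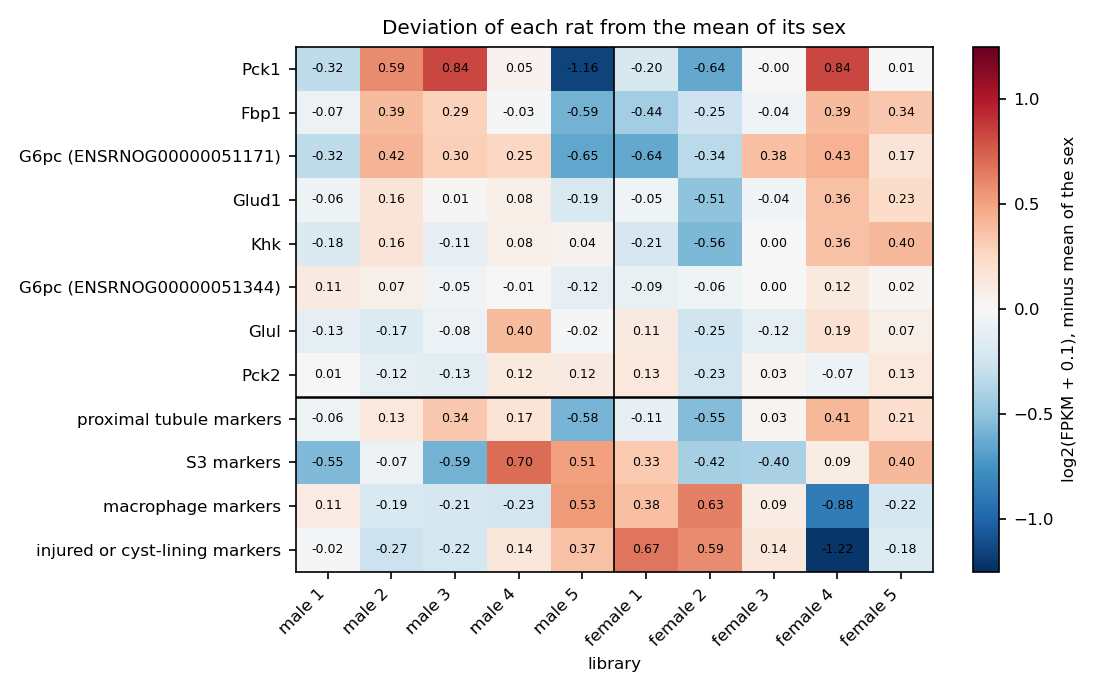
Deviation of each rat from the mean of its sex, on the log2(FPKM + 0.1) scale, for the member rows (above the line) and for the mean of 4 marker lists (below it), with red for above and blue for below the mean. *Pck1*, *Fbp1* and *G6pc* shared the low value of male 5 and the high value of female 4 with the proximal tubule markers, while *Pck2* stayed between -0.23 and 0.13.

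The same deviations were set against the mean log2 level of 14 lists of cell type markers, 112 relations with the 8 member rows, of which 6 had an adjusted permutation p of 0.05 or less for r. In bulk tissue, fewer cells of a type and less RNA per cell cannot be told apart. With the 10 proximal tubule markers *Pck1* had r = 0.92 and rho = 0.94 (n = 10, adjusted permutation p = 0.0233 and 0.0156), and r = 0.86 without female 2 and male 5, the 2 rats farthest out. *Glud1* had r = 0.86 and rho = 0.89 (adjusted permutation p = 0.0342 and 0.0583), and r = 0.75 without those rats. For *Fbp1* r was 0.85 and for *G6pc* 0.80 (adjusted permutation p = 0.0640 and 0.0843), and for *Pck2* it was 0.01.

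Several members were low where macrophage and injury genes were high. With 5 macrophage markers *Pck1* had r = -0.85 and rho = -0.88 (adjusted permutation p = 0.0233 and 0.0447), and r = -0.81 without females 2 and 4, and *Fbp1* had r = -0.85 and rho = -0.85 (adjusted permutation p = 0.0441 and 0.110), and r = -0.92 without them. *Glud1* had r = -0.90 and rho = -0.93 (adjusted permutation p = 0.0600 and 0.0447), and r = -0.84 without them. *G6pc* and *Khk* had r = -0.80 and -0.76 (adjusted permutation p = 0.0653 and 0.229), while for *Pck2* r was 0.04. With 7 markers of injured or cyst-lining epithelium *Fbp1* had r = -0.81 and rho = -0.90 (adjusted permutation p = 0.0233 and 0.0447), and r = -0.86 without females 1 and 4, and *Pck1* had r = -0.74 and rho = -0.79 (adjusted permutation p = 0.0342 and 0.110), and r = -0.81 without them. *Glud1*, *Khk* and *G6pc* had r of -0.80, -0.71 and -0.71 with this list (adjusted permutation p = 0.218, 0.353 and 0.141). As background, the 5th percentile of r with single genes was -0.83 for *Glud1* and -0.80 for *Khk*. It was -0.72 for *Pck1*, -0.73 for *Fbp1* and -0.70 for *G6pc*. Fibroblast and mural cell markers had r = -0.74 with *Glud1* and -0.71 with *Khk* (adjusted permutation p = 0.353 and 0.382). Male 5 had the highest summed level of the macrophage and injury lists (226 and 7339 FPKM), and female 4 the lowest (57.3 and 999 FPKM). The macrophage sum in FPKM ran between 120 and 226 among males and between 57.3 and 146 among females, and the injury sum between 3412 and 7339 among males and between 999 and 5709 among females. Of the 5 macrophage genes 0 were higher in females on the fitted log2 scale, and of the 7 injury genes 1. None was called between the sexes, none was at 0, and *Spp1* made up most of the injury sum. Their part in the level of these members was not tested.

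*Glul* and *Pck2* were set in the same way against 5 markers of the straight part of the proximal tubule (S3). The r was 0.76 for *Glul* and 0.72 for *Pck2* (rho 0.70 and 0.75, n = 10), and 0.68 and 0.63 without males 3 and 4, but neither passed over the 112 relations (adjusted permutation p = 0.0843 and 0.212). Other lists were as close, with r = -0.79 between *Glul* and the intercalated cell markers (adjusted permutation p = 0.141) and r = 0.72 between *Pck2* and the thick ascending limb markers (adjusted permutation p = 0.221). The sum of this list in FPKM lay between 686 and 1757 among males and between 697 and 1578 among females, with male 4, the rat with the highest *Glul*, on top. Of the 5 markers 2 were higher in females on the fitted log2 scale, with a median of -0.46. *Slc5a1* (0.73) was the 1 called (limma adjusted p = 0.0353), *Slc7a13* stood at 1.08, and *Aadat* (-0.96), *Acy3* (-0.46) and *Serpina1* (-0.86, mean 0.575 FPKM) stood on the male side. Of the 5 thick ascending limb markers 4 were higher in females, with a median of 0.35. Among them *Egf* (0.82) was called higher and *Ptger3* (-0.62) lower (limma adjusted p = 0.00233 and 0.0435).

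Between the sexes, the proximal tubule markers were close, with a mean log2 of 7.76 in males and 7.78 in females (exact permutation p = 0.921), but the mean averaged markers on both sides. On the fitted log2 scale 4 of the 10 were higher in females, among them *Cubn* (0.72), the 1 called (limma adjusted p = 0.0467), while *Aqp1* (-0.56) and *Slc22a6* (-0.53) stood on the male side. Expressed relative to that mean, *Pck1* was 0.54 lower in females on the log2 scale (exact permutation p = 0.0714) and *Glul* 0.38 lower (exact permutation p = 0.119). *Pck2* was 0.36 higher by the same measure (exact permutation p = 0.175), and the other rows differed by at most 0.155, with exact permutation p of 0.302 or more. None passed on this scale.

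The 3 genes whose pattern was most like each member over the 10 libraries, by Pearson's r of log2(FPKM + 0.1) among genes whose mean reached 1 FPKM, are named here by member. For *Pck1* they were *Parg* (r = 0.95), *Lgmn* (0.94) and *Parp16* (0.94). For *Fbp1* they included *Sgpp1* (r = 0.97) and *Acmsd* (0.94), an enzyme of tryptophan breakdown. *G6pc* was followed by *Rufy1* (r = 0.95) and *Npepl1* (0.94), and *Glud1* by *Utp18* (r = 0.97), *Derl1* (0.97) and *Ivd* (0.97). *Khk* was followed by *Nkiras1* (r = 0.98), *Phyhd1* (0.97) and *Anapc5* (0.97), and *Glul* by *Actr2* (r = 0.96), *Serpinf2* (0.95) and *Pttg1ip* (0.93). The second *G6pc* row was followed by *Mpp5* (r = 0.94), *Slc25a16* (0.94) and *Akirin1* (0.93).

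*Pck2* was the one member whose nearest genes included called ones. *Sept4* (r = 0.95) averaged 24.9 and 65.3 FPKM in males and females, with log2 fold change 1.40 (limma adjusted p = 0.00911). *Atp2c2* (r = 0.92) averaged 0.384 and 1.67 FPKM (limma adjusted p = 0.0202). *Mars* (r = 0.94), the methionyl-tRNA synthetase, averaged 19.99 and 23.9 FPKM, with log2 fold change 0.25 that did not pass (limma adjusted p = 0.172). These r include the difference between the sexes, and within the sexes they were 0.81, 0.73 and 0.85. The genes were picked as the highest of 11914, so no p is given.

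Around the members, 5 lists of 66 genes of the same pathways gave 65 tested rows, of which 4 were called higher in females and 1 lower, with a median log2 fold change of 0.05. Over all genes tested, 1.26% were called higher and 1.14% lower, with a median of -0.01. The lists were chosen with earlier results of these data known, so their counts were not tested against these shares. Among 15 other enzymes and carriers of gluconeogenesis none was called. *Mdh1*, the cytosolic malate dehydrogenase, averaged 550 and 575 FPKM in males and in females (limma adjusted p = 0.963).

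Of 13 tested genes of ammoniagenesis and of glutamine and ammonium handling, 2 were called higher in females and none lower, with a median log2 fold change of 0.30. *Rhcg*, an ammonia channel of the collecting duct, stood at 70.3, 54.9, 57.0, 55.2 and 59.8 FPKM in males and 71.9, 92.4, 103, 113 and 84.4 FPKM in females. All females lay above all males, with a log2 fold change of 0.63 (SE 0.12, limma adjusted p = 0.0221). Without male 2, 3, 4 or 5, or female 3, its adjusted p was 0.0556 to 0.0685, and the call was also lost with no filter (0.0783) and with a replicate block (0.122), 7 of 21 alternatives in all. The 5 markers of intercalated cells, among the cells in which *Rhcg* is known, had sums of 134 to 205 FPKM among males against 215 to 337 among females, with 5 of 5 higher in females on the fitted scale, 1 called (*Atp6v0d2*) and none near 0. The 5 principal cell markers had sums of 290 to 471 FPKM among males against 335 to 531 among females, with 5 of 5 higher in females and *Avpr2* called. Of the distal convoluted tubule markers 3 of 3 tested were higher in females, with *Calb1* called, and *Pvalb* was at 0 in every library. Their part in the *Rhcg* difference was not tested.

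*Asns*, the asparagine synthetase that spends glutamine, was the other called gene of that list. It stood at 4.22, 3.80, 4.27, 5.43 and 5.94 FPKM in males and 9.26, 11.4, 8.04, 5.43 and 11.04 FPKM in females. Female 4 lay within the male range and the other females above it. The log2 fold change was 0.89 (SE 0.20, limma adjusted p = 0.0471), and the call was lost without any 1 of the 9 rats other than female 4 (adjusted p 0.0576 to 0.131). It was also lost with a pseudocount of 1, no filter, scaling by total reads, eBayes without trend and a replicate block (adjusted p 0.0506 to 0.158), 14 of 21 alternatives in all. *Oat*, the ornithine aminotransferase, averaged 279 ± 69.1 FPKM in males and 511 ± 219 FPKM in females (SD, n = 5 each, limma adjusted p = 0.239), and *Slc6a19*, a neutral amino acid transporter, 55.9 and 64.9 FPKM (limma adjusted p = 0.824). *Slc25a18* and *Slc25a22* had at most 2 reads in any library and were not tested.

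No gene of 8 in fructose metabolism was called, and the median log2 fold change was -0.10. *Sord*, the sorbitol dehydrogenase that makes fructose, averaged 234 FPKM in males and 243 FPKM in females (limma adjusted p = 0.974). Of 9 genes for the entry of lactate and glycerol 1 was called higher in females and the median was 0.35. This was *Slc16a7*, a monocarboxylate transporter, at 25.8, 20.6, 21.1, 27.4 and 23.1 FPKM in males and 29.4, 46.1, 35.0, 41.1 and 29.9 FPKM in females. The ranges did not overlap and the log2 fold change was 0.60 (SE 0.14, limma adjusted p = 0.0471), but the call was lost without any 1 of the 9 rats other than female 1 (adjusted p 0.0545 to 0.125). It was also lost with no filter, quantile normalization, scaling by total reads, eBayes without trend and a replicate block (adjusted p 0.0542 to 0.146), 14 of 21 alternatives in all. *Ldhb* and *Ldha*, the lactate dehydrogenase subunits, averaged 455 and 183 FPKM in males and 584 and 170 FPKM in females (limma adjusted p = 0.367 and 0.674).

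Among 20 regulators of the members, on 21 rows, 1 was called in each direction. *Klf15*, a transcription factor known for its part in gluconeogenesis and amino acid breakdown, stood at 25.6, 24.8, 21.2, 21.1 and 20.2 FPKM in males and 33.1, 28.4, 40.1, 39.7 and 50.3 FPKM in females. The ranges did not overlap, with a log2 fold change of 0.74 (SE 0.14, limma adjusted p = 0.0202), and without male 3, 4 or 5, or female 3 or 4, the adjusted p was 0.0523 to 0.0633, and the call was also lost with no filter (0.0819) and with a replicate block (0.111). *Esr1*, the estrogen receptor alpha, stood at 4.75, 5.58, 5.29, 6.88 and 5.03 FPKM in males and 2.27, 1.66, 1.95, 3.72 and 2.43 FPKM in females. All males lay above all females, the log2 fold change was -1.20 (SE 0.20, limma adjusted p = 0.00793), and the call held in all 21 alternatives run. *Hnf4a* averaged 143 FPKM in males and 141 FPKM in females, and *Ghr* 45.5 and 41.2 FPKM (limma adjusted p = 0.926 and 0.691).

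**Figure D4:**
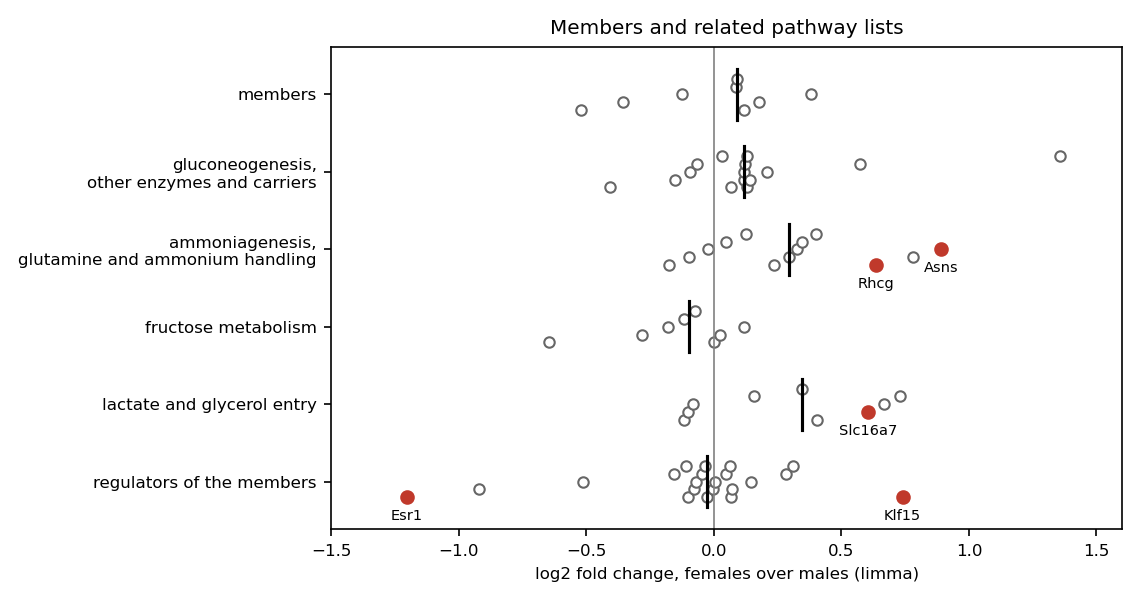
Log2 fold change of each tested gene, females over males, in the members and the 5 related lists (horizontal axis, limma fit over all genes, n = 5 each), with the median of each list as a vertical bar and called genes filled in red and named (vertical offsets only separate points). The 5 called genes were *Rhcg*, *Asns*, *Slc16a7* and *Klf15* on the female side and *Esr1* on the male side, and no member was called.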

How the data were processed

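Kidney expression of 5 male and 5 female PCK rats came from 1 table of FPKM per gene deposited by the authors. Per the methods and labels, poly-A libraries were sequenced on an Illumina instrument, reads were filtered with fastp, aligned to Rnor_6.0 with HISAT2 2.0.5 and counted with featureCounts 1.5.0-p3, and StringTie 1.3.3b was also used. Strandedness was not given in the sources used here. The library size behind the FPKM was not the total of reads on genes. It was 15435670 against 14387669 reads in male 1, and 17691443 against 19556707 reads in female 4. All values were whole multiples of 1 read (100% within 0.01 read), which gave the depth, 13912569 to 20285911 reads on genes.

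Genes whose mean reached 0.1 FPKM were tested by limma 3.58.1 (R 4.3.3, trend) on log2(FPKM + 0.1), which understates changes of low genes, in place of the count model of the study. Exact two-sided permutation tests ran over all splits of the rats between the sexes, or all orders within each sex. The test over splits was checked against scipy 1.17.1 on simulated data. The linear fits were tested on simulated data. Nothing in the labels assigns rats to litters, so p-values measure the spread between these rats.

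The members and lists were chosen with earlier results of these data known. Of each list, called genes and the 2 of highest mean FPKM are named, and for each member the 3 genes most like it, except for some genes that are not reported here. Marker genes are named only from the lists set beside a member, where called, near 0 or needed to show how the list divided. The same replicate numbers in both sexes did not pair the rats. Alternatives were other pseudocounts, filters, scalings and variance models, voom on recovered reads, a replicate block and leaving out each rat. Median-ratio scaling left the genes called at 223 higher and 201 lower and barely moved the member values. It was therefore not a separate check. The list genes *Aldh4a1*, *Slc22a24* and *Cyp11b1* matched no row.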

Additional observations from a re-analysis of the deposited data

Results flagged for a closer look

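One member value stood apart in its group. *Glul* in male 4 was 799 FPKM, and the next male was at 596 FPKM, a gap that took up 0.780 of the range of the 5 males and passed Dixon's test at the 95% level. Of 16 groups (8 member rows in each sex) this was the 1 that passed, and chance alone passes about 1 group in 20. Without male 4 the difference in mean *Glul*, females minus males, was smaller, at -89.2 against -136 FPKM with all rats, and kept its direction.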

How the results depend on the processing

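The direction of *Pck1*, *Pck2*, *Fbp1*, *Glul*, *Khk* and the second *G6pc* row held in all alternatives run, but not their size. Over leaving out each rat the log2 fold change of *Pck1* ran from -0.81 to -0.31, of *Fbp1* from -0.27 to -0.01 and of *Khk* from 0.08 to 0.32, and scaling by total reads gave 0.04 for the second *G6pc* row. *Glud1* turned to a log2 fold change of -0.019 with quantile normalization, and ran from -0.00044 to 0.22 over leaving out each rat. *G6pc* (ENSRNOG00000051171) ran from -0.077 to 0.246, and from -3.92 to 19.0 FPKM. *Pck2* ran from 0.35 to 0.44 over leaving out each rat, was 0.30 with scaling by total reads (limma adjusted p = 0.250), and was called without female 2, so that member rows called ranged from 0 to 1. The exact permutation p of the second *G6pc* row ran from 0.0397 to 0.151 over leaving out each rat, and that of the *Pck1* to *G6pc* ratio from 0.0397 to 0.103, both unadjusted. For the *Pck1* to *Pck2* ratio this unadjusted exact permutation p ran from 0.0317 to 0.198. It ran from 0.0238 to 0.333 for *Khk* to *Fbp1* and from 0.0476 to 0.397 for *G6pc* to *Fbp1*. For *Glud1* to *Glul* it stayed between 0.0159 and 0.0476. The causes were not tested. Over all genes, 223 were called higher and 201 lower. No filter gave 129 and 129, an added requirement of an absolute log2 fold change of at least 1 gave 109 and 123, and leaving out each rat gave 134 to 282 and 121 to 261. Scaling by total reads gave 170 and 235, which shifted the split toward lower calls, and limma-voom gave 247 and 257. With a replicate block, that is rats of the same number paired, the counts were 119 and 112, although same-numbered rats did not deviate together (correlations -0.10 to 0.07) and 1 of 5 matched its own number best, and no member was called. *Pck2* had 441 to 801 reads per library and the second *G6pc* row 654 to 992, so that counting error is part of the spread in these rows.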

Other observations

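Several enzymes of the lists had large differences without passing the test, and are named here because their values were seen. *Fbp2*, the muscle form of fructose bisphosphatase, averaged 1.37 ± 0.684 FPKM in males and 3.45 ± 0.858 FPKM in females (SD, n = 5 each), with log2 fold change 1.36 (SE 0.33, limma adjusted p = 0.0593). *Gpd1*, the glycerol phosphate dehydrogenase, averaged 92.6 and 150 FPKM (log2 fold change 0.67, limma adjusted p = 0.184), and *Slc5a8*, a sodium-coupled lactate transporter, 13.4 and 23.1 FPKM (0.73, limma adjusted p = 0.175). *Rhbg*, the basolateral partner of *Rhcg*, averaged 26.9 and 35.7 FPKM (0.40, limma adjusted p = 0.0922).

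On the male side, *Slc2a5*, the fructose transporter, averaged 11.6 ± 2.69 FPKM in males and 7.52 ± 2.31 FPKM in females (SD, n = 5 each), with ranges that did not overlap (limma adjusted p = 0.206). *Cebpb*, a transcription factor of the acute phase, averaged 56.2 and 30.5 FPKM (log2 fold change -0.92, limma adjusted p = 0.126).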
